A study of Saccharomyces cerevisiae with 26 samples.

Results

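The respiratory chain and TCA cycle genes described here are 43 nuclear genes of budding yeast (Saccharomyces cerevisiae), chosen by name as the subunits and enzymes of these assemblies. They are 43 of the 6002 protein-coding genes that could be placed on the deposited signal tracks. They comprise 12 subunits of the ATP synthase (ATP1, ATP2, ATP3, ATP4, ATP5, ATP7, ATP14, ATP15, ATP16, ATP17, ATP18 and ATP20), 9 of complex III (COR1, QCR2, QCR6, QCR7, QCR8, QCR9, QCR10, CYT1 and RIP1), the cytochrome c gene CYC1, 8 of complex IV (COX4, COX5A, COX6, COX7, COX8, COX9, COX12 and COX13), 4 of succinate dehydrogenase (SDH1 to SDH4) and 9 TCA cycle enzymes (CIT1, ACO1, IDH1, IDH2, KGD1, KGD2, LPD1, FUM1 and MDH1). They lie on 14 chromosomes, and all 43 passed the filter on low values in both assays.

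The TCA cycle oxidises acetyl groups in the mitochondrial matrix and hands the electrons to carriers. Succinate dehydrogenase, complex III, cytochrome c and complex IV pass the electrons to oxygen. Complexes III and IV pump protons on the way, and the ATP synthase uses the proton gradient to make ATP. In S. cerevisiae most of these genes are lowered by glucose and raised by the Hap2/3/4/5 activator complex during respiratory growth.

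Each assay had 4 groups of 2 libraries: wild type (WT) and fkh1Δfkh2Δ2C, each growing asynchronously or arrested in G1. FKH1 and FKH2 encode the Forkhead transcription factors Fkh1 and Fkh2. The mutant is labelled as deleted for both genes, and the sources used here do not explain 2C. Cultures grew in YEPD, a rich medium, at room temperature, and the G1 cultures were held for 4 h in α-factor, a mating pheromone to which a cells respond by stopping before S phase. Rpb3, a subunit of RNA polymerase II, was mapped by chromatin immunoprecipitation and sequencing (ChIP-seq), and strand-specific sequencing was done on total RNA from which ribosomal RNA had been removed. A level below is the mean of the authors' normalised signal per 50 bp bin over a gene, which is a level per length, and the RNA level is taken from the gene's own strand. The normalisation holds the total of each library nearly constant, so a difference is relative to the other genes of the library, and in bulk cultures fewer expressing cells cannot be told apart from less signal per cell. For the 21 members on the Crick strand the RNA of asynchronous cells rests on 1 library per strain, because a column name occurs more than once in the deposited table. The highest bin was the same in every library of an assay. The share of RNA bins at 0 was 76.3% to 76.6% in asynchronous WT and 80.8% to 83.2% in G1 WT. In the mutant it was 72.4% to 73.7% and 74.8% to 79.5%. The part of this in the RNA differences was not tested. The sequencing depth behind the signal is unknown.

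The labels were checked against FKH1, whose Rpb3 level was 27.6 to 40.4 in the 4 WT libraries and 2.97 to 7.62 in the 4 mutant libraries. FKH2 kept signal in the mutant, with Rpb3 levels of 37.8 to 46.4 over the gene as a whole. Over the last of 3 equal parts of FKH2 the mutant libraries were at 13.6 to 16.9 and the WT libraries at 26.1 to 38.9. Of 10 pheromone response genes, 10 rose in Rpb3 with arrest in WT and 9 in the mutant, and of 8 histone genes 7 and 5 fell. One Rpb3 library, asynchronous WT replicate 1, stood apart: its gene levels correlated with those of replicate 2 at r = 0.551 across genes, against 0.965 to 0.980 for the other pairs of libraries of a group. The main counts and medians that rest on asynchronous WT Rpb3 are therefore also given without this library, and single members are given by their value in each library.

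In asynchronous WT the members lay high among all genes in both assays. The median member stood at percentile 83.7 of all genes in Rpb3 and at percentile 84.3 in RNA, and 42 of 43 members lay above the middle of the genes in each assay. With Rpb3 replicate 2 alone the median member stood at percentile 76.1, and 37 of 43 lay above the middle. The highest Rpb3 levels were those of CYC1, the mobile electron carrier, at 182 and 148 in replicates 1 and 2, of QCR6, a small subunit of complex III, at 144 and 107, and of ATP2, the catalytic β subunit of the ATP synthase, at 120 and 118. The levels of CYC1 and QCR6 thus came from replicates that differed, and those of ATP2 from replicates that were close. The lowest Rpb3 levels were those of ATP20, a subunit of the membrane part of the ATP synthase, at 38.8 and 38.2, of FUM1, fumarase, at 43.0 and 38.4, and of KGD2, a subunit of α-ketoglutarate dehydrogenase, at 47.4 and 34.6. These 3 low members sat near the median of all genes, which was 39.0 to 39.8.

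**Figure D1:**
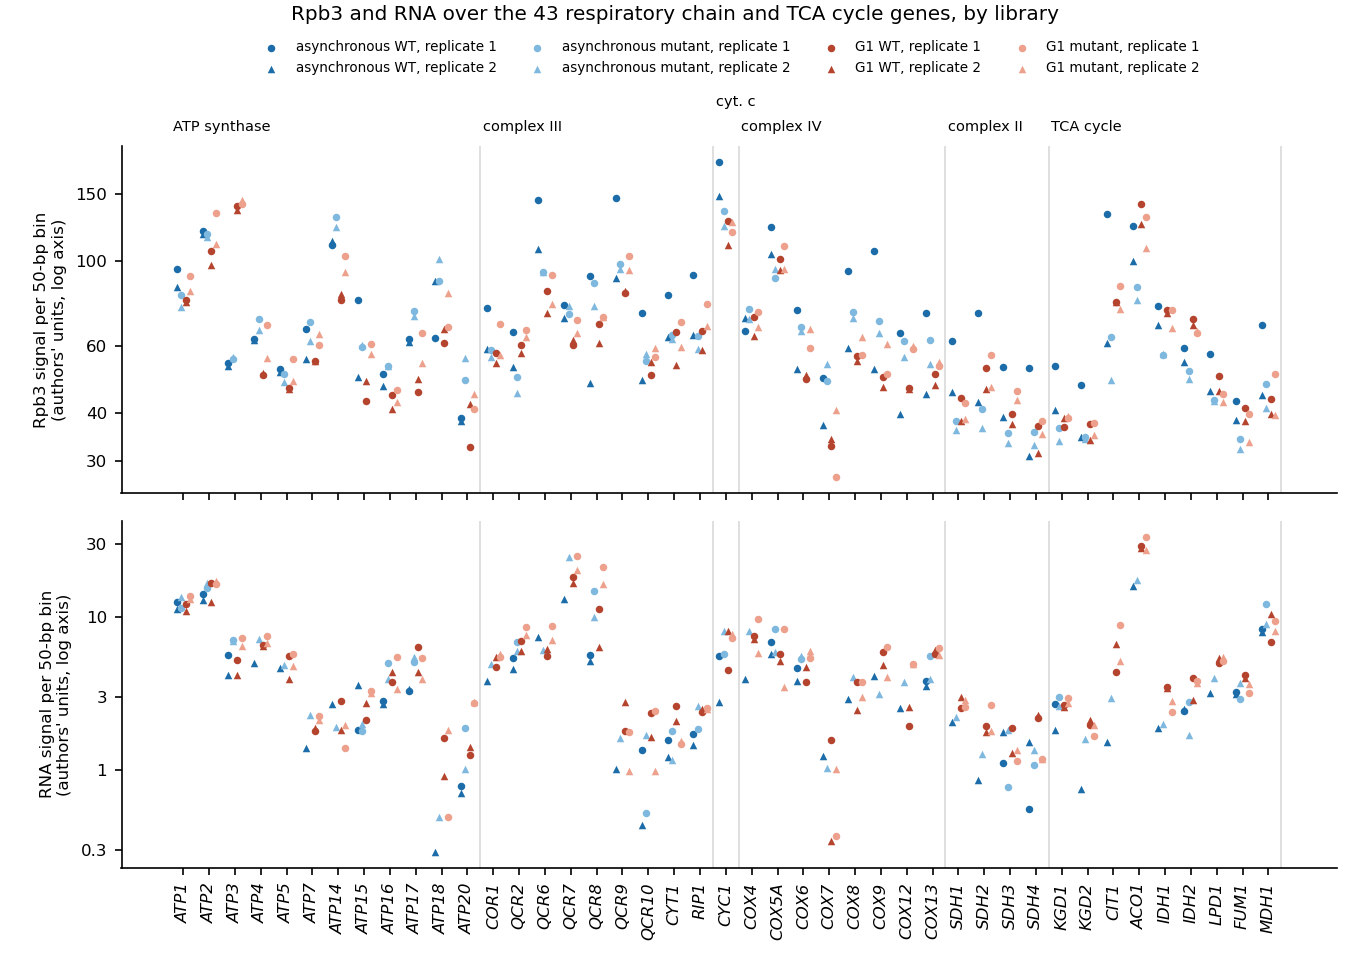
Rpb3 (upper) and sense-strand RNA (lower) levels of the 43 members, in normalised signal per 50 bp bin on a log axis, with 1 point per library and colours for the 4 groups. Rpb3 of asynchronous WT replicate 1 is the highest of the 8 libraries for 28 members, and ATP3 is the member whose arrested and asynchronous Rpb3 values lie farthest apart.

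By RNA the order was different. The highest members in asynchronous WT were ACO1, aconitase, at 15.9 in its 1 library, ATP2 at 14.1 and 12.9, and QCR7, a small subunit of complex III, at 13.1 in its 1 library. The lowest were ATP18 at 0.293 and KGD2 at 0.757, each in 1 library, and ATP20 at 0.789 and 0.707. The range across members was therefore far wider in RNA than in Rpb3. By complex, the median percentile in RNA was 87.6 for complex III, 87.5 for complex IV, 84.7 for the ATP synthase, 81.5 for the TCA enzymes and 67.7 for succinate dehydrogenase. In Rpb3 the corresponding medians were 88.2, 85.3, 83.5, 78.8 and 70.2, so succinate dehydrogenase was the lowest of the 5 assemblies in both assays. With Rpb3 replicate 2 alone they were 84.6 for complex III, 74.9 for complex IV, 81.1 for the ATP synthase, 64.4 for the TCA enzymes and 53.1 for succinate dehydrogenase, which was again the lowest.

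The ratio of RNA to Rpb3 was set to 1 at the median of 5160 genes. Rpb3 kept a signal over genes with almost no RNA. Over STE3, an α-cell gene, Rpb3 was at 19.0 to 25.1 and RNA at most at 0.0517. A gene high in both assays can therefore lie above 1, and no reference matched by level was used. Its median over the members was 2.66 in asynchronous WT, where 38 of 43 members lay above 1, and 3.11 in the asynchronous mutant. With Rpb3 of WT replicate 2 alone, 40 members lay above 1 in asynchronous WT. In G1 it was 3.88 in WT, with 43 of 43 members above 1, and 3.96 in the mutant, with 40 above 1. The highest ratios in asynchronous WT were those of QCR7 at 9.74, MDH1, malate dehydrogenase, at 8.03, ACO1 at 7.80 and ATP1, the α subunit of the ATP synthase, at 7.25. The lowest were 0.212 for ATP18 and 0.470 for QCR9. These are ratios of separately normalised signals, and they describe a member relative to the median gene and not copies of RNA per polymerase. RNA on the opposite strand was highest over QCR7, at 2.06 in 1 library, and at most 0.75 in any library over the other members.

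The members took part in the difference between the asynchronous WT Rpb3 libraries. Replicate 1 exceeded replicate 2 in 40 of 43 members, by a median of 0.34 on the log2 scale, while the median of all genes was −0.00. The gap was wide for complex IV at 0.56, succinate dehydrogenase at 0.55, complex III at 0.41, the TCA enzymes at 0.30 and CYC1 at 0.28, and it was 0.02 for the ATP synthase. CIT1, citrate synthase, was at 133 in replicate 1 and 61.1 in replicate 2, and COX9, a small subunit of complex IV, at 107 and 52.3. ATP3, the γ subunit of the ATP synthase, was at 54.1 and 53.3. In the other 3 groups the median member differed by 0.06, 0.06 and 0.10 between its libraries.

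Genes outside the set moved with this difference. The 12 stress genes were all higher in replicate 1, by a median of 1.62, and of 131 cytoplasmic ribosome genes 1 was higher, with a median of −2.29. In RNA, where 22 members have both asynchronous WT libraries, the median member differed by 0.14, the stress genes by 0.29 and the ribosome genes by −0.06. The part of these genes in the members' Rpb3 values was not tested.

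**Figure D2:**
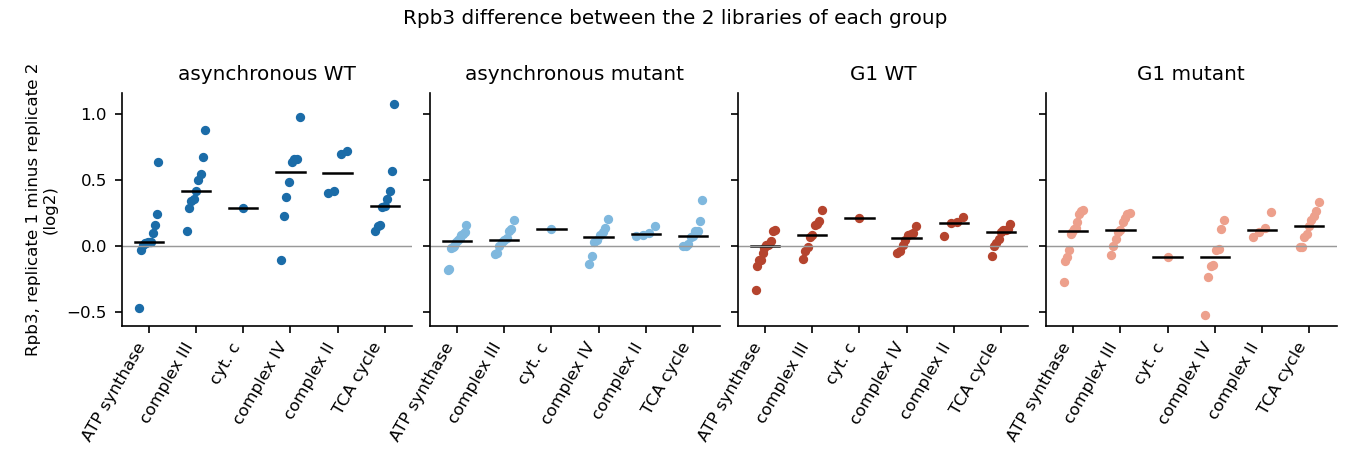
Difference between replicates 1 and 2 of each group in Rpb3, on the log2 scale, with 1 point per member, the members grouped by complex and lines at the medians. In asynchronous WT 40 of 43 members lie above 0, with the ATP synthase members around it, while in the other groups the members lie closer to 0.

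With arrest in G1, Rpb3 rose over 1 of the 43 members in WT, ATP3, and no member fell past the threshold. The comparison asks how polymerase over each gene differs between pheromone-arrested and growing cells. By limma with Benjamini-Hochberg adjustment over 5401 genes, 2.41% of all genes tested rose and 1.33% fell. ATP3 was at 54.1 and 53.3 in asynchronous WT and at 140 and 137 in arrested WT. In the mutant it was at 55.7 and 56.2 when asynchronous and at 141 and 145 when arrested, so no arrested library overlapped an asynchronous one in either strain. The log2 difference was 1.30 in WT (SE 0.15, adjusted p = 0.00673 by limma) and 1.29 in the mutant (SE 0.15, adjusted p = 0.00858 by limma). In WT the ATP3 call was lost when the fit held the 2 compared groups alone. It was also lost without either G1 WT library in WT, and without any 1 asynchronous or G1 mutant library in the mutant, at log2 differences of 1.28 to 1.32.

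The RNA of ATP3 did not move with its Rpb3. Its RNA level was 5.65 and 4.21 in asynchronous WT and 5.29 and 4.22 in arrested WT, with a log2 difference of −0.05 (SE 0.24). In the mutant it was 7.11 and 7.02 when asynchronous and 7.36 and 6.48 when arrested, a log2 difference of −0.03 (SE 0.24). The libraries of the 2 conditions overlapped in each strain. FIG1, a pheromone-induced gene of mating, lies 457 bp downstream of ATP3 on the same strand, and its Rpb3 rose from 19.5 to 22.7 in the 4 asynchronous libraries to 200 to 295 in the 4 arrested ones. Within ATP3, cut into 3 equal parts, the first part was at 54.0 to 57.8 in asynchronous and 96.5 to 113 in arrested libraries. The last part, next to FIG1, was at 51.0 to 55.5 in asynchronous and 155 to 169 in arrested libraries. Between the genes Rpb3 was at 22.9 to 42.2 in asynchronous and 75.8 to 114 in arrested libraries, so the arrested signal was lower there than over the last part of ATP3 or over FIG1. ChIP fragments from one gene can be counted over the next, and the part of FIG1 in the ATP3 value was not tested.

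**Figure D3:**
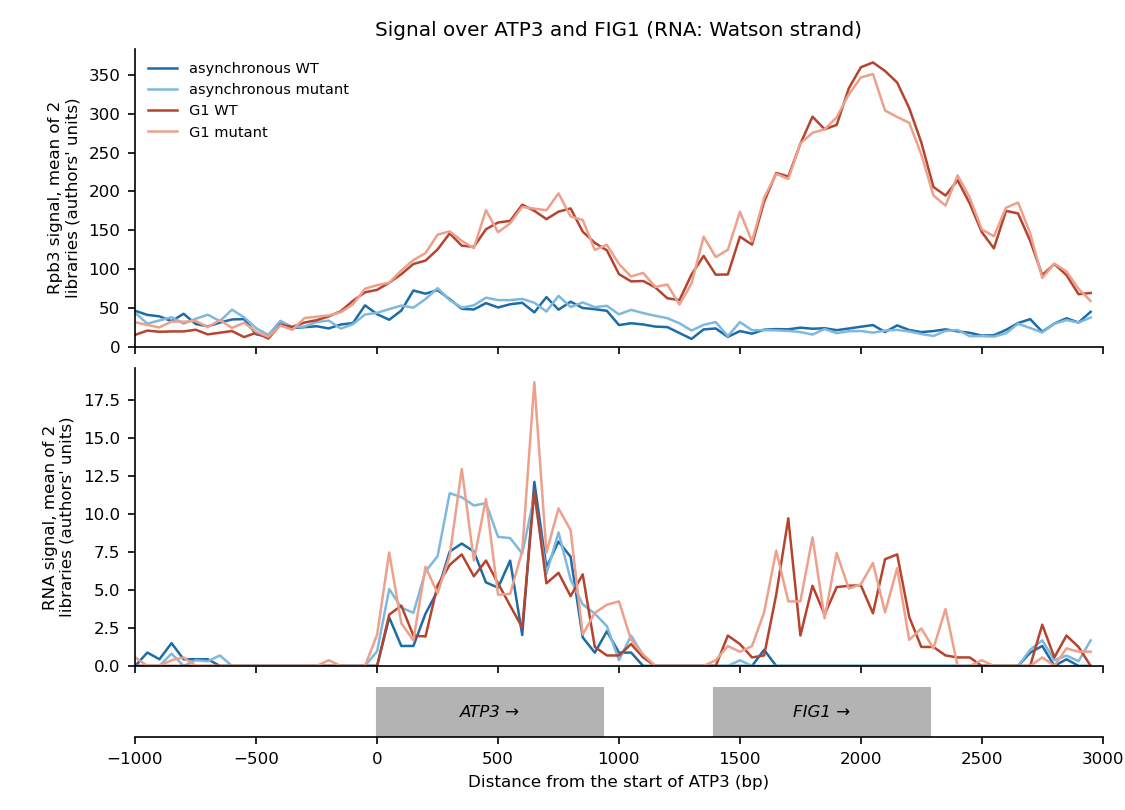
Rpb3 and Watson-strand RNA along ATP3 and FIG1 in normalised signal per 50 bp bin, against distance from the start of ATP3 in bp, with 1 line per group (the mean of its 2 libraries) and the genes drawn beneath. In both arrested groups Rpb3 is raised over ATP3, dips between the genes and is higher again over FIG1, while the RNA lines of arrested and asynchronous cells cross over ATP3 and part over FIG1.

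Of the other 42 members none passed the threshold in WT, and the set as a whole lay lower in arrested cells. The median log2 difference of the members was −0.22, against −0.02 for all genes, and 38 of 43 members were negative. In 22 members (51.2%) both arrested libraries were below both asynchronous ones, against 24.6% of all genes tested, and in 3 members (6.98%) both were above, against 15.3%. The lowest differences, none past the threshold, were −0.65 for QCR6 (adjusted p = 0.184 by limma), −0.59 for COX9 and −0.46 for CYC1. QCR6 was at 144 and 107 in asynchronous and at 83.6 and 73.2 in arrested WT, with no overlap. COX9 was at 107 and 52.3 in asynchronous and at 49.9 and 46.9 in arrested WT. Next to ATP3, the highest were 0.27 for IDH2 and 0.25 for ACO1, also not past the threshold. By complex the medians were −0.46 for CYC1, −0.26 for complex III, −0.26 for complex IV, −0.22 for succinate dehydrogenase, −0.20 for the ATP synthase and −0.09 for the TCA enzymes.

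Much of this downward lean came with asynchronous WT replicate 1. Without it 23 members (53.5%) had both arrested libraries below replicate 2, against 47.9% of all genes tested, and 13 (30.2%) had both above, against 32.4%. The median member difference was then −0.07, that of the TCA enzymes 0.06 and that of succinate dehydrogenase 0.06. COX9 was then at −0.10, QCR6 at −0.44 and CIT1 at 0.34. ATP3 remained called at 1.31, and ATP14, a subunit of the stator stalk of the ATP synthase, fell by 0.47 (adjusted p = 0.0450 by limma), when 5.22% of all genes tested rose and 5.20% fell. Without replicate 2 instead, 1 member rose and 25 fell, when 19.5% of all genes tested rose and 20.7% fell.

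In the mutant, too, ATP3 was the 1 member called with arrest, where 1.68% of all genes tested rose and 0.500% fell. Here the members did not lean down: their median log2 difference was 0.02, against −0.02 for all genes. In 14 members (32.6%) both arrested libraries were above both asynchronous ones, against 29.8% of all genes tested, and in 11 (25.6%) both were below, against 35.7%. The 9 TCA enzymes were all positive, with a median of 0.14, and the 4 succinate dehydrogenase genes were all positive, with a median of 0.23. No TCA or succinate dehydrogenase gene passed the threshold in this fit, in which the asynchronous WT pair also feeds the estimate of the spread.

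When either asynchronous WT library was left out, the differences in the mutant were the same and the spread was smaller. These fits are not separate checks, because the differences came from the same mutant libraries. The spread also came from the same libraries, since a single asynchronous WT library adds none. The same 10 members were then called with either library left out, when 19.3% of all genes tested were called without replicate 1 and 19.7% without replicate 2. Of the 43 members this is 8 that rose and 2 that fell. The share of members called is near that of all genes tested, so the count does not set the members apart. Rises and falls of all genes are not given separately here. The members that rose were ATP3, CIT1, ACO1, IDH1, IDH2, SDH2, SDH3 and QCR2, and those that fell were ATP14 and COX7. CIT1, ACO1 and the isocitrate dehydrogenase subunits IDH1 and IDH2 catalyse the opening steps of the cycle, from acetyl-CoA to α-ketoglutarate. These 4 were picked out after their values were seen, and whether the opening steps moved as a group was not tested. CIT1 was at 63.2 and 49.0 in asynchronous and at 86.4 and 75.1 in arrested mutant cells, a log2 difference of 0.50 (adjusted p = 0.0286 by limma without replicate 1). ACO1 was at 85.8 and 79.2 in asynchronous and at 131 and 109 in arrested mutant cells, a log2 difference of 0.51 (adjusted p = 0.0253 by limma). IDH1 was at 56.9 and 57.2 in asynchronous and at 74.6 and 67.0 in arrested mutant cells, and IDH2 at 51.6 and 49.1 and then 65.1 and 65.6. The arrested libraries of these 4 enzymes lay above the asynchronous mutant ones without overlap.

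In WT the same 4 enzymes showed no such separation throughout. ACO1 was at 124 and 100 in asynchronous and at 141 and 125 in arrested WT. IDH2 was at 59.2 and 54.4 and then at 70.8 and 68.2. CIT1 was at 133 and 61.1 and then at 78.4 and 78.4, and IDH1 at 76.5 and 68.3 and then at 74.4 and 73.4. The arrested libraries thus lay above the asynchronous ones for ACO1 and IDH2 and between them for CIT1 and IDH1. IDH2 lies 456 bp from BAG7, whose Rpb3 rose by 0.52 in WT and 0.69 in the mutant on the log2 scale; the part of BAG7 in the IDH2 value was not tested.

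**Figure D4:**
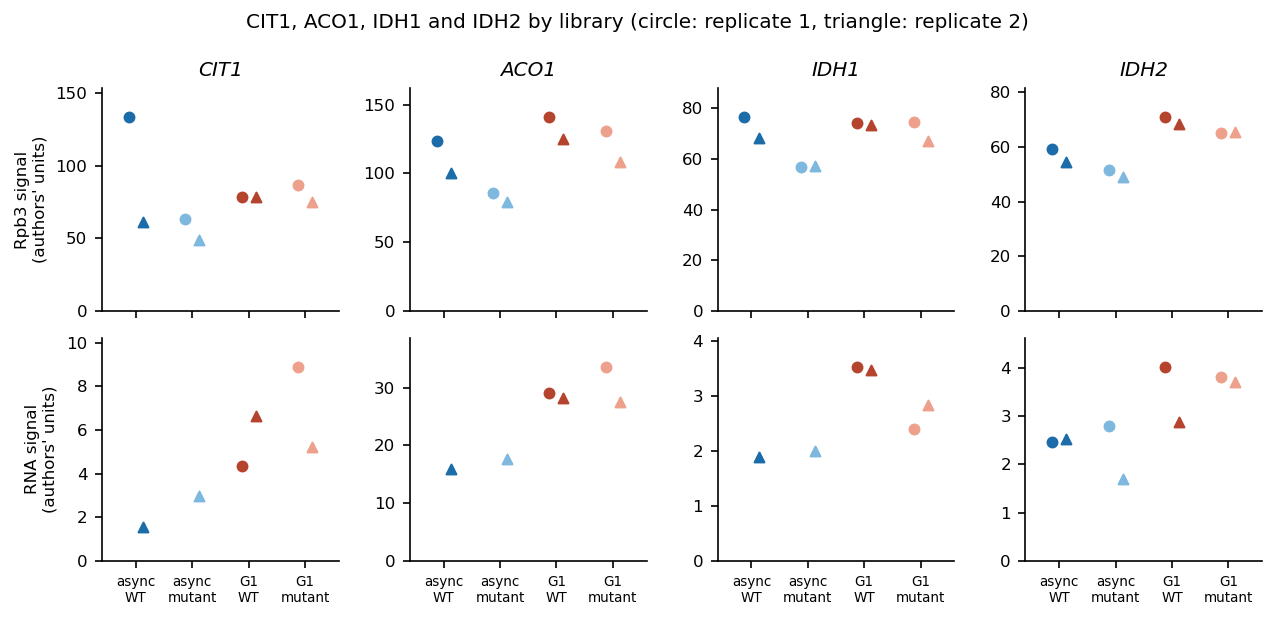
Rpb3 (upper) and sense-strand RNA (lower) levels of CIT1, ACO1, IDH1 and IDH2, in normalised signal per 50 bp bin, with 1 symbol per library in the 4 groups. In the mutant, Rpb3 of the arrested libraries is above the asynchronous ones for all 4 genes, and Rpb3 of CIT1 in asynchronous WT is split between 133 and 61.1.

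Among the other members that were called in the mutant without either asynchronous WT library, SDH2, the iron-sulfur subunit of succinate dehydrogenase, was at 41.0 and 36.6 in asynchronous and at 56.7 and 46.8 in arrested cells (log2 difference 0.38). SDH3, a membrane anchor of the same complex, was at 35.5 and 33.6 and then at 45.8 and 43.5 (0.34). QCR2, a core subunit of complex III, was at 49.8 and 45.3 and then at 66.0 and 63.5 (0.42). These 3 genes were higher in both arrested libraries. ATP14 was at 130 and 123 in asynchronous and at 103 and 93.6 in arrested mutant cells, and COX7, a small subunit of complex IV, at 48.5 and 53.9 and then at 27.2 and 40.9. Both were lower in each arrested library.

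In RNA no member passed the threshold with arrest in WT by limma, where 2.07% of all genes tested did, and 13 members and 993 of all genes had an unadjusted p under 0.05. The median log2 difference of the members was 0.41, against −0.18 for all genes, and 34 of 43 were positive. The TCA enzymes were all positive with a median of 0.70, succinate dehydrogenase had a median of 0.73, complex III of 0.60, the ATP synthase of 0.23 and complex IV of 0.02. The median was 0.41 for members on the Watson strand and 0.41 for those on the Crick strand. With each library centred on its median gene the members' RNA median was 0.53 in WT and 0.26 in the mutant, beside −0.06 and −0.02 for all genes. This lean of RNA was opposite in sign to that of Rpb3 in the same comparison. Much of the Rpb3 lean came with the asynchronous WT library that stood apart.

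ATP18, a small membrane subunit of the ATP synthase, had the highest RNA difference with arrest in WT, 1.85 (adjusted p = 0.258 by limma), from 0.293 in 1 asynchronous library to 1.62 and 0.920 in G1. CIT1 followed at 1.76 (adjusted p = 0.115 by limma), from 1.54 in 1 library to 4.36 and 6.66. KGD2 had 1.36 (adjusted p = 0.123 by limma), from 0.757 in 1 library to 1.96 and 2.13. All 3 lie on the Crick strand, so each stands against 1 asynchronous library. ACO1 RNA was 15.9 in 1 asynchronous library and 29.1 and 28.2 in G1, which is the highest RNA level of the set in both states. The lowest differences were −0.66 for COX7, −0.34 for QCR6 and −0.25 for ATP14, none past the threshold.

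**Figure D5:**
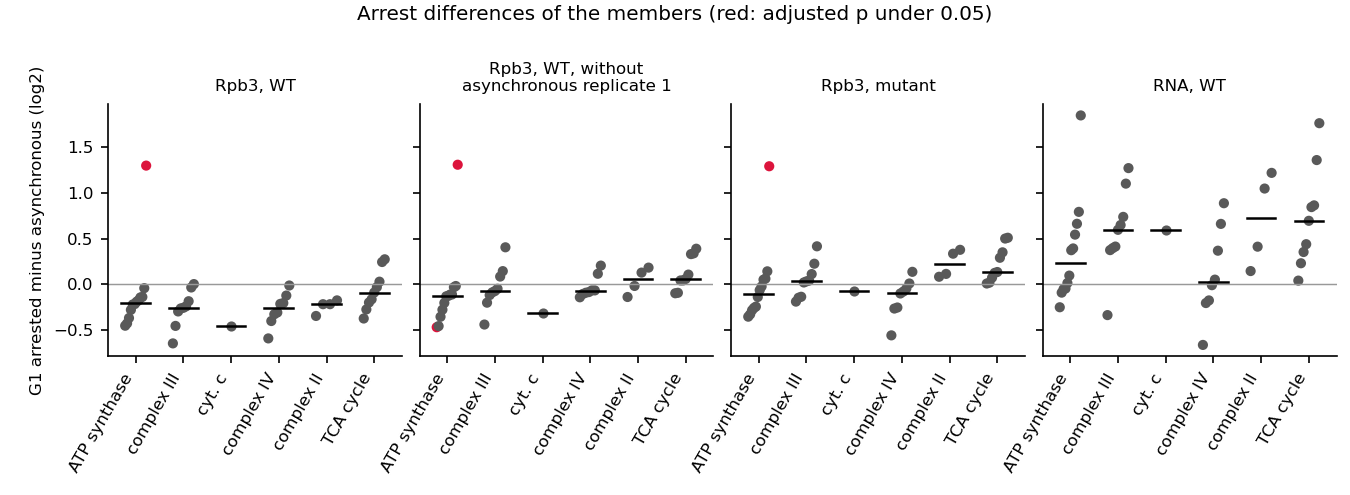
Arrest differences (G1 minus asynchronous, log2) of the 43 members by complex, in panels for Rpb3 in WT with and without asynchronous replicate 1, Rpb3 in the mutant and RNA in WT, with lines at the medians and red points for an adjusted p under 0.05. ATP3 is the red point near 1.30 in the Rpb3 panels, ATP14 is the other one without replicate 1, and with all libraries of WT the members lie mostly below 0 in Rpb3 and above 0 in RNA.

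In the mutant 0 members passed in RNA with arrest by limma, where 0.611% of all genes tested did, and 4 members and 502 of all genes had an unadjusted p under 0.05. The median member difference was 0.11, against −0.16 for all genes, and 29 of 43 were positive. The TCA enzymes had a median of 0.38, with 8 of 9 positive. CIT1 was again among the highest at 1.17 (adjusted p = 0.479 by limma), with 2.98 in 1 asynchronous library and 8.90 and 5.20 in G1, ATP20 had 0.97 and ATP18 0.87. The lowest were COX7 at −0.67, COX5A, the aerobic isoform of a complex IV subunit, at −0.37 and QCR9 at −0.28. None of these passed the threshold.

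Between asynchronous mutant and WT cells 0 members passed in Rpb3 by limma, and 0% of all genes tested did. The count at an unadjusted p under 0.05 was 6 members, against 1272 of all genes. The median member difference was −0.16, against −0.04 for all genes. In 18 members (41.9%) both mutant libraries were below both WT ones, against 34.9% of all genes tested, and in 6 both were above, against 24.6%. The TCA enzymes were all negative with a median of −0.29, succinate dehydrogenase had −0.42 and the ATP synthase 0.11. The lowest members were CIT1 at −0.66, SDH2 at −0.49 and SDH1, the flavoprotein subunit of succinate dehydrogenase, at −0.47 (adjusted p = 0.199 by limma). SDH1 was at 61.9 and 45.5 in WT and at 38.3 and 36.1 in the mutant.

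The highest members in this comparison were ATP20 at 0.40 (adjusted p = 0.199 by limma), ATP18 at 0.32 and QCR8, a small subunit of complex III, at 0.29. ATP20 was at 38.8 and 38.2 in WT and at 48.8 and 55.7 in the mutant, with no overlap. QCR8 was at 91.6 and 48.0 in WT and at 88.0 and 76.5 in the mutant, whose libraries lie between the WT ones. Without asynchronous WT replicate 1 the median member difference was 0.00, that of the TCA enzymes −0.12, with 0 of 9 positive, that of succinate dehydrogenase −0.15 and that of the ATP synthase 0.14. Both mutant libraries were then below replicate 2 in 18 members (41.9%), against 49.0% of all genes tested, and above it in 19 (44.2%), against 34.1%. By limma 0 members passed, where 0.278% of all genes tested did, and 11 members and 1132 of all genes had an unadjusted p under 0.05. Without replicate 2 instead, 1 member (ATP18) rose and 24 fell, when 48.1% of all genes tested were called in either direction.

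The RNA of asynchronous cells leaned up in the mutant. Over all members, the median Rpb3 difference no longer leaned down without asynchronous WT replicate 1. The Rpb3 medians of the TCA enzymes and succinate dehydrogenase stayed negative without it. Over all members the assays thus leaned in opposite directions with all libraries, but not without replicate 1. By limma 0 members passed and 0% of all genes tested did, with 7 members and 214 of all genes at an unadjusted p under 0.05. The median member difference was 0.36, against 0.07 for all genes, and 36 of 43 members were positive. QCR8 was highest at 1.16, from 5.69 and 5.15 in WT to 14.8 and 10.1 in the mutant, with no overlap. KGD2 had 1.01 and COX4, a subunit of complex IV, 1.01, each from 1 library per strain, with COX4 at 3.98 in WT and 8.11 in the mutant. The lowest were ATP14 at −0.49, ATP15, the ε subunit of the ATP synthase, at −0.42 and COX9 at −0.38.

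In arrested cells, where the Rpb3 libraries of WT differed less, the mutant lay slightly above WT over most members. No member passed by limma and 0% of all genes tested did, with 1 member and 204 of all genes at an unadjusted p under 0.05. The median member difference was 0.12, against −0.01 for all genes, and 36 of 43 members were positive. In 22 members (51.2%) both mutant libraries were above both WT ones, against 20.6% of all genes tested, and in 2 (4.65%) both were below, against 20.9%. All 12 ATP synthase genes were positive with a median of 0.20, and all 9 of complex III with 0.13, as were 7 of 8 of complex IV with 0.11. The TCA enzymes had 4 of 9 positive and a median of −0.06. Of 131 cytoplasmic ribosome genes 124 were positive in the same comparison, with a median of 0.18, so the lean was not measured to be particular to the respiratory genes. The highest were ATP15 at 0.34, COX12, a subunit of complex IV, at 0.33 and COX6 at 0.31, and the lowest ACO1 at −0.15, LPD1 at −0.12 and FUM1 at −0.10, none past the threshold.

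In RNA of arrested cells 0 members passed by limma, where 0.0555% of all genes tested did, and 3 members and 428 of all genes had an unadjusted p under 0.05. The median member difference was 0.09, against 0.10 for all genes. In 15 members (34.9%) both mutant libraries were above both WT ones, against 23.0% of all genes tested, and in 5 both were below, as in 647 of the 5401 genes. The share without overlap in either direction was 35.0% of all genes tested. QCR8 was again highest at 1.13 (adjusted p = 0.449 by limma), from 11.4 and 6.40 in WT to 21.3 and 16.4 in the mutant. COX12 had 1.12 (adjusted p = 0.425 by limma), from 1.95 and 2.58 to 4.93 and 4.94, and ATP20 had 1.02, from 1.26 and 1.43 to 2.75 and 2.81. In these 3 genes the mutant libraries lay above the WT ones, and QCR8 and ATP20 did so in asynchronous cells as well. COX12 was at 3.79 in the asynchronous mutant and 2.54 in asynchronous WT, in 1 library each. The lowest were SDH4, a membrane anchor of succinate dehydrogenase, at −0.89, QCR9 at −0.74 and CYT1, which encodes cytochrome c1, at −0.62.

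Whether the mutant difference itself changed with arrest was tested as an interaction, the mutant difference in G1 minus that in asynchronous cells. In Rpb3 0 members passed by limma, 0% of all genes tested did, and 2 members and 293 of all genes had an unadjusted p under 0.05. The median was 0.24, against 0.03 for all genes, and 36 of 43 were positive. The highest were CIT1 at 0.70, SDH2 at 0.55 and SDH3 at 0.55, and the lowest COX7 at −0.23, ATP20 at −0.22 and QCR8 at −0.15. Without asynchronous WT replicate 1 the median was 0.10, 29 members were positive and 0 passed, when 0.130% of all genes tested did. Without replicate 2 instead, 20 members rose, when 17.3% of all genes tested did. In RNA 0 members and 0% of all genes tested passed, 1 member and 219 of all genes had an unadjusted p under 0.05, and the median was −0.28, against 0.03 for all genes.

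Rpb3 was also compared between the first and the last of 3 equal parts of the 20 members of at least 600 bp. The median log2 ratio of last to first part was −0.18 in asynchronous WT, −0.06 in the asynchronous mutant, 0.01 in G1 WT and 0.00 in the G1 mutant. Over 4420 genes the corresponding medians were 0.03, 0.09, 0.11 and 0.06. In asynchronous WT the members' median was −0.26 in replicate 1 and −0.02 in replicate 2, against −0.04 and 0.09 for all genes. The slope toward the 5′ end was thus larger in replicate 1, and all genes shifted in the same direction. The members' median lay below that of all genes in both replicates and in every group.

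Other genes of respiration, in lists of pyruvate dehydrogenase (4 genes), electron donors (6), HAP regulators (6), assembly factors (37), inner membrane carriers (11) and further subunits and enzymes (18), held 1 gene called in Rpb3, in both strains with arrest, and 2 called in RNA, 1 in each strain with arrest. Of the 82 genes listed, 80 were tested in Rpb3, so 1.25% were called with arrest in each strain, against 3.74% of all genes in WT and 2.18% in the mutant. In RNA 81 were tested and 1.23% were called in each strain, against 2.07% and 0.611%. The gene called in Rpb3 was PET494, a translational activator of the mitochondrial COX3 message, with log2 differences of 0.88 in WT (adjusted p = 0.00673 by limma) and 1.10 in the mutant (adjusted p = 0.00512 by limma). AGA1, a pheromone-induced agglutinin gene, lies 262 bp upstream of PET494, and its Rpb3 went from 35.7 to 57.0 in asynchronous libraries up to 756 to 853 in arrested ones. The first part of PET494 was at 33.3 to 35.2 in asynchronous and 177 to 194 in arrested libraries, and its last part at 46.5 to 54.7 and 40.3 to 45.2. The higher Rpb3 thus lay at the end next to AGA1, and PET494 RNA had differences of −1.48 and −1.66, not past the threshold. The part of AGA1 in the PET494 value was not tested.

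In RNA, CYC7, the second cytochrome c gene, rose with arrest in WT from 0.303 in 1 asynchronous library to 1.82 and 2.79 in G1, a log2 difference of 2.66 (adjusted p = 0.0323 by limma). COX14, a complex IV assembly factor, was called with arrest in the mutant, where it is listed at 0 in the 1 asynchronous library and at 1.31 and 2.23 in G1, while asynchronous WT was at 2.13. HAP4, the regulatory subunit of the activator complex, had Rpb3 levels of 50.2 to 61.9 across the 8 libraries and log2 differences with arrest of −0.01 in WT and −0.13 in the mutant, neither past the threshold. No gene of glycolysis (18 genes), of the mitochondrial ribosome (67) or of the cytoplasmic ribosome (132) was called by limma in any of the comparisons of either assay, and at most 33 genes of any of these lists had an unadjusted p under 0.05. For the cytoplasmic ribosome the absence of calls in Rpb3 says little. Its genes differed by a median of −2.29 on the log2 scale between the asynchronous WT Rpb3 libraries. That spread entered every Rpb3 comparison through the shared fit. In RNA with arrest in WT, the medians of these lists were −0.06, −0.04 and −0.40, beside 0.41 for the members.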

How the data were processed

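Rpb3 ChIP-seq and strand-specific RNA-seq libraries were used, 8 of each. The authors deposited a normalised signal per 50 bp bin for every library; the sources used here name no aligner, genome build or normalisation method, and the depth is unknown. The 10 BrdU libraries were not used, and 2 RNA columns that share a name were left out.

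Genes were placed on the bins with RefSeq gene names, order and lengths (assembly R64), and no coordinates are printed because the builds may differ. A gene's level is its mean signal per bin, for RNA on its own strand. Tests used limma 3.58.1 in R 4.3.3 on log2(signal + pseudocount), with a pseudocount of 4.02 for Rpb3 and 0.0642 for RNA, which understates changes of low genes. The lowest 10% of genes were left out, 5401 were tested per assay, the 4 groups shared 1 fit with a variance trend, and p-values were 2-sided and adjusted by Benjamini-Hochberg at a threshold of 0.05. A member was called where its adjusted p was under that threshold. The scripts were tested on simulated data with each gene's spread taken from these libraries. The noise was drawn independently, with the same spread in all 8 libraries, so a library that stands apart was not simulated. Changes smaller than 1 on the log2 scale were not simulated either. In WT, an arrest change of 1 on the log2 scale was called in 76% of changed genes in Rpb3 and 5% in RNA. For a change of 2 the shares were 96% and 29%. A comparison without calls, above all in RNA, therefore does not show that the members were unchanged. Python 3.11.15, pandas 2.3.3, numpy 2.4.6 and matplotlib 3.10.9 were used.

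The named genes are all members past the threshold and, where fewer than 6 passed, the 3 highest and 3 lowest differences, with the 3 highest and lowest levels; CIT1, ACO1, IDH1, IDH2 and further single values were added after their values were seen. The members and lists were chosen with earlier results of these data known. No label says that replicates come from separate cultures, so p-values measure the spread between these libraries, which may be technical. Alternatives were other pseudocounts, filters, scalings, gene summaries, fits and left-out libraries. No sequence is shown, and counts of promoter motifs were not run.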

Additional observations from a re-analysis of the deposited data

Results flagged for a closer look

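In 4 members every arrested Rpb3 library lay below every asynchronous one in WT and above every asynchronous one in the mutant. This is 9.30% of the members, and the pattern was found in 189 of all 5401 genes tested (3.50%); no member had the reverse pattern, which 108 genes (2.00%) had. The 4 are ATP1, COX5A, SDH1 and KGD1, a subunit of α-ketoglutarate dehydrogenase. With arrest WT differed by −0.19, −0.20, −0.35 and −0.27 on the log2 scale, whereas the mutant differed by 0.14, 0.14, 0.11 and 0.14. The difference between the strains was 0.33 for ATP1, 0.34 for COX5A, 0.46 for SDH1 and 0.41 for KGD1, and as an interaction in limma each had an adjusted p of 0.650. SDH1 was at 61.9 and 45.5 in asynchronous and at 43.8 and 38.3 in arrested WT, and at 38.3 and 36.1 and then 42.7 and 38.6 in the mutant. Without asynchronous WT replicate 1 the differences between strains were 0.25, 0.23, 0.25 and 0.23, and those with arrest in WT were −0.11, −0.09, −0.14 and −0.10.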

How the results depend on the processing

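The members' signal is limited by its unknown depth, by 2 libraries per group, by 7 members of at most 5 bins and by 1 asynchronous RNA library per strain for 21 members. Of 1084 repeats of the named values, 1041 kept their direction and side of the threshold, 7 lost the call, 20 gained one and 16 changed sign; the cause was not tested. Members called in Rpb3 with arrest in WT were 2 with no variance trend and 0 in a fit of the 2 groups compared alone, and in the mutant 7 in such a fit. Leaving out 1 library gave 0 to 26 members in WT, 0 to 10 in the mutant, 0 to 25 between asynchronous strains, 0 to 0 between arrested strains and 0 to 20 for the interaction. The high ends came without an asynchronous WT library. ATP3 was lost without G1 WT replicate 1 or 2 (adjusted p = 0.0732 and 0.0866 by limma) and in the mutant without any library of its own groups (0.0748 to 0.160 by limma). In RNA with arrest in WT the range was 0 to 1 (SDH4 at 1.89 without asynchronous WT replicate 2), and in the other RNA comparisons 0 to 0.

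Sign changes in RNA under other settings were QCR6 at 0.28 (arrest, WT), ATP18 at −2.40 (arrest, mutant), CYT1 at 2.08 (strains, G1) and QCR6 at −0.019 (interaction) with the median over bins, and ATP15 at 0.70 (strains, asynchronous) and −0.44 (interaction) with no shift of gene positions. With 1 library left out in turn, Rpb3 ran from −0.15 to 0.73 for QCR8 and, between arrested strains, from −0.21 to 0.0069 for FUM1. The Rpb3 interaction ran from −0.59 to 0.28 for QCR8 and from −0.49 to 0.032 for COX7. RNA ran from −0.90 to 0.049 for ATP15 between asynchronous strains, from −0.56 to 0.061 for ATP14 and −1.67 to 0.35 for COX7 with arrest in WT, and from 0.00 to 1.75 for ATP18, −0.99 to 0.25 for COX5A and −0.69 to 0.13 for QCR9 with arrest in the mutant. Asynchronous WT replicate 2 gave the sign change of QCR8 and ATP15 when left out, G1 mutant replicate 1 that of COX7 in Rpb3, G1 WT replicate 2 those in WT and G1 mutant replicate 2 the others.

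Over all genes the calls ranged, without leaving out a library, from 0 to 207 in Rpb3 with arrest in WT (202 as reported) and from 86 to 1022 in the mutant (118), and in RNA from 5 to 210 (112) and 0 to 271 (33). Between strains they reached 203 in asynchronous and 74 in arrested RNA, 10 in arrested and 1 in asynchronous Rpb3, and 250 for the RNA interaction. No label says that a replicate number marks a shared batch, and with 2 numbers the data cannot decide it: across genes, deviations of same-numbered libraries correlated at 0.39 between asynchronous strains, 0.46 between arrested strains and 0.02 to 0.19 otherwise in Rpb3, and at 0.01 to 0.14 in RNA. With the replicate number as a block, 1 member was called with arrest in Rpb3 in each strain and 0 in each other comparison, and all genes called were 183 and 109 in Rpb3 and 181 and 69 in RNA with arrest, 1 between asynchronous and 6 between arrested strains in RNA.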
